A study of Mus musculus with 2 samples.

Results

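The genes described here encode the junctions that join heart muscle cells end to end: the connexins Gja1, Gja5 and Gjc1, the cadherin Cdh2, the alpha-catenin Ctnna3 and the desmosome genes Dsg2, Dsc2, Jup, Pkp2 and Dsp. They were taken by name from the deposited gene tables, and all 10 of 10 were found among the 17646 genes listed in either table. The data are RNA-seq of whole hearts from mouse embryos at embryonic day 13.5 on a BALB/c background, with 1 wild-type library and 1 library of the genotype labelled SRSF10-/-. Srsf10 encodes an SR-type splicing factor, and the comparison asks how transcript levels differ in a heart without it. The sources used here give neither how the mutant allele was made nor how many embryos went into a library.

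Depth was 39.61 M uniquely mapped reads for wild type and 38.89 M for knockout. Srsf10 itself was counted 5245 times in wild type and 212 times in knockout. All 9 cardiomyocyte markers checked were detected in both libraries, led by Actc1, Myh7 and Tnnt2, although Tnnc1 had only 42 and 39 reads. With 1 library per group there is no replicate check and no test across samples, and "higher" or "lower" compares just these 2 libraries. Intervals of read ratios are exact 95% intervals and cover counting error only. Sex went with genotype: 4 Y-linked genes summed to 2943 wild-type reads and 7 knockout reads. In bulk tissue, fewer cells of a type and less RNA per cell cannot be told apart.

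As background, cardiomyocytes are held together and coupled at the intercalated disc. Gap junctions, built of connexins, pass current from cell to cell. Adherens junctions tie the actin of neighbouring cells together through N-cadherin and the catenins. Desmosomes tie the desmin filaments together through desmosomal cadherins, the armadillo proteins plakoglobin and plakophilin, and desmoplakin. In the embryonic heart these junctions lie along much of the cell border and gather at the cell ends after birth. In humans, mutations of the desmosome genes cause arrhythmogenic cardiomyopathy.

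Start-site sequence is shown for 4 genes, chosen after their values were seen: Jup and Dsp, whose ratios between the libraries lay farthest apart, and Gja1 and Gja5, the most abundant connexins, whose regulators are described further on. Windows at RefSeq start sites were kept for 5 of the 10 genes (Ctnna3 is the fifth). The lack of a window for the other genes does not show that RefSeq has no start site for them. Each window runs from 250 bases before the start to 50 after it, 5′ to 3′ on the gene's own strand in GRCm38.p6. Capitals mark matches on either strand to short motifs. These are GGTGTG, the core bound by T-box factors. Others are AAGTG, the core bound by NK2 factors such as the Nkx2-5 protein. The sites of GATA factors were searched as AGATAA and separately, with another first letter, as TGATAA. The site of the AP-1 factors was searched as TGAGTCA in full. The box bound by Sp1-type proteins is GGGCGG in this search. The box bound by the TATA-binding protein was taken as TATAAA without further letters. No capitals overlap between motifs.
Gja1, chr10:56377050-56377349, + strand: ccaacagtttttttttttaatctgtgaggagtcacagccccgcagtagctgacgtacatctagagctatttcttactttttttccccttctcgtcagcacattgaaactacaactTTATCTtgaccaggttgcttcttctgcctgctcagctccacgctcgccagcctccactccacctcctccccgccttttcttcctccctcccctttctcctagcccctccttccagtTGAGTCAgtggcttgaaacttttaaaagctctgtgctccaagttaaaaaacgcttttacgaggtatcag
Gja5, chr3:97032152-97032451, + strand: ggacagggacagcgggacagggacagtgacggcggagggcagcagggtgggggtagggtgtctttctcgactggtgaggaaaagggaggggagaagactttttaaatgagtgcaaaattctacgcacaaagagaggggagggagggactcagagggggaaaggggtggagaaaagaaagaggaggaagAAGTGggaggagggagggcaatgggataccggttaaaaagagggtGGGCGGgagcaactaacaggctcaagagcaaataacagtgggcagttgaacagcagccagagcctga
Jup, chr11:100397741-100398040, - strand: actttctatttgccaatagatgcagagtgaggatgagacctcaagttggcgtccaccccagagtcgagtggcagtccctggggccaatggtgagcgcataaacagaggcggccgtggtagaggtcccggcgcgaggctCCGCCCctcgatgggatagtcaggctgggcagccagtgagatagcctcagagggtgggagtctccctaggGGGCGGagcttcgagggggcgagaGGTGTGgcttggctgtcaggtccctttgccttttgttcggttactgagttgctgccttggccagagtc
Dsp, chr13:38151044-38151343, + strand: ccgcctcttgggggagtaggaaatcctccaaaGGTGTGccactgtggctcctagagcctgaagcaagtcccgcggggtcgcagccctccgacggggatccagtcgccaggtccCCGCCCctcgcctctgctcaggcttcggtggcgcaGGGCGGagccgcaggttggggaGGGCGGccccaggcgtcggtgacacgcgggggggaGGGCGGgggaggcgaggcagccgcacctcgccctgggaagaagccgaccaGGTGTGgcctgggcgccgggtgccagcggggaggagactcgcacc

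The 4 windows differ in base composition and in the letters marked. The GC content was 47.7% for Gja1, 55.7% for Gja5, 60.7% for Jup and 73% for Dsp, against a median of 52.7% over 32851 RefSeq start sites. Gja1 had 1 GATA match and 1 AP-1 match, and Gja5 had 1 NK2 core match and 1 GC box. Jup had 1 T-box core match and 2 GC boxes, and Dsp had 2 T-box core matches and 4 GC boxes. No TATA box was found in these 4 windows. Among all start sites, 19% held the T-box core, 46.4% the NK2 core, 18.6% a GATA match, 5.2% the AP-1 match, 35.7% a GC box and 13.6% the TATA box. These matches describe the letters only and are no evidence of binding.

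The junction genes as a group were close to level between the libraries. None of the 10 differed by 1.5-fold or more on the RPKM + 1 scale, where RPKM is reads scaled to gene length in kilobases and to library depth in M reads. Genes were counted as expressed from 1 RPKM in either library, and of these 12329 genes 2.95% passed 1.5-fold, 1.52% on the higher side and 1.44% on the lower. At 1.2-fold, 1 of the 10, Jup, was past the mark in the lower direction and none in the higher, against 10.4% lower, 10.1% higher and 20.5% in all for the expressed genes. A share of 1 in 10 is near that background, and no claim about the group rests on it. The log2 ratios, knockout over wild type, ran from -0.29 to 0.13 with a median of -0.03, beside a median of -0.01 and quartiles of -0.14 and 0.13 for all expressed genes. Of the 10 genes, 3 were above 0 and 7 below. Among the 12329 expressed genes, 5943 were above 0 and 6386 below, which is the background for such counts here and in the lists further on.

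**Figure D1:**
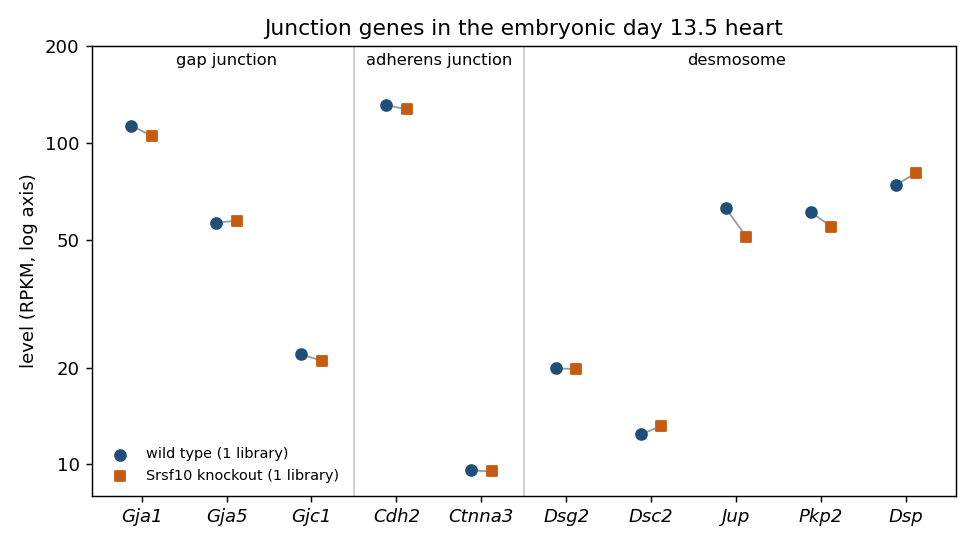
Level of each junction gene in wild type (circles) and the Srsf10 knockout library (squares), in RPKM on a log axis, grouped by junction type, with 1 library per group and so no error bars. Levels span from 9.58 RPKM for Ctnna3 to 131 RPKM for Cdh2 in wild type, and the order of the genes is nearly the same in both libraries.

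The level per length spanned a wide range over the 10 genes, and their order hardly differed between the hearts. In the wild-type library Cdh2 stood first at 131 RPKM and Gja1 second at 113 RPKM, followed by Dsp, Jup, Pkp2 and Gja5 between 73.8 and 56.5 RPKM. Gjc1 and Dsg2 lay near 20 RPKM, Dsc2 at 12.4 and Ctnna3 at 9.58. The knockout library kept Cdh2, Gja1 and Dsp at the top and Gjc1, Dsg2, Dsc2 and Ctnna3 at the bottom in that order. In the middle, Jup stood above Pkp2 and Gja5 in wild type and below both in knockout. Cdh2 and Gja1 stood above 96.7% and 96.0% of the expressed genes in wild type, Ctnna3 above 49.0%.

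Among the connexins, Gja1 (ENSMUSG00000050953, chromosome 10) was the most abundant. It encodes Cx43, the main gap junction protein of the working ventricular muscle. It had 13877 reads (113 RPKM) in wild type and 12722 reads (105 RPKM) in knockout. The level was thus slightly lower in knockout, by 1.071-fold (1.045 to 1.097), an interval that leaves out 1. That is a small difference among these libraries: 61.5% of the expressed genes differed by more. As a share of the summed RPKM of the 9 cardiomyocyte markers, Gja1 stood at 0.804% in wild type and 0.826% in knockout. That sum was itself lower in knockout (14000 and 12700 RPKM), which lifts every gene on this scale.

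Gja5 (ENSMUSG00000057123, chromosome 3) encodes Cx40, the connexin of the atria, the conduction system, the embryonic trabeculae and arterial endothelium. It had 8208 reads (56.5 RPKM) in wild type and 8152 reads (57.2 RPKM) in knockout, a ratio of 1.012 (0.9811 to 1.043). The 2 libraries did not differ beyond counting error. Gjc1 (ENSMUSG00000034520, chromosome 11) encodes Cx45, the connexin of the early heart tube and the nodes. It had 2968 reads (22 RPKM) and 2793 reads (21 RPKM), a ratio of 0.9586 (0.910 to 1.01) that also holds 1.

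The make-up of the connexin pool differed little among these 3 genes. Of the RPKM summed over the listed connexins, 211 in wild type and 209 in knockout, Gja1 held 53.4% and 50.3%, Gja5 26.7% and 27.3%, and Gjc1 10.4% and 10%. The level of Gja1 relative to Gja5 was 2 in wild type and 1.84 in knockout, a relative change of 0.923 (0.888 to 0.960, a normal approximation on the log scale for counting error). Relative to Gjc1, Gja1 stood at 5.14 and 5.01, and that change of 0.974 (0.92 to 1.03) was within counting error. These pairs compare levels per listed length, and the listed length of Gjc1 equals that of a transcript annotated as a retained-intron form. For Gja5, reads covered 67.5% of the listed length in wild type and 75.22% in knockout, so its level, share and pairs are less certain.

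The adherens junction genes both lay near level. Cdh2 (ENSMUSG00000024304, chromosome 18) encodes N-cadherin, the classical cadherin of heart muscle. It had 25110 reads (131 RPKM) in wild type and 23922 reads (127 RPKM) in knockout, 1.03-fold lower (1.012 to 1.049). Ctnna3 (ENSMUSG00000060843, chromosome 10) encodes alpha-T-catenin, the muscle-type alpha-catenin that also binds plakophilin-2. It had 1397 reads (9.58 RPKM) and 1363 reads (9.52 RPKM), a ratio of 0.9939 (0.9217 to 1.072). The Cdh2 difference is small against the field, as 82.4% of the expressed genes differed by more. As a share of the cardiomyocyte marker sum, which was lower in knockout, Cdh2 stood at 0.933% in wild type and 0.996% in knockout. Relative to Ctnna1, the broadly expressed alpha-catenin, the level of Ctnna3 was 0.0695 in wild type and 0.0710 in knockout, so the muscle form was the minor alpha-catenin transcript in both hearts.

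Within the desmosome the genes went in different directions. The armadillo genes Jup and Pkp2 were lower in knockout and the plakin Dsp was higher, while the desmosomal cadherins lay closest to level. Jup (ENSMUSG00000001552, chromosome 11) encodes plakoglobin, which links the cadherins to desmoplakin and also occurs in adherens junctions. It had 7936 reads (62.5 RPKM) in wild type and 6357 reads (51.0 RPKM) in knockout. It was 1.226-fold lower in knockout (1.186 to 1.267), with a log2 ratio of -0.29, and this was the largest difference among the 10 genes. Of all expressed genes, 8.66% had a lower log2 ratio and 17.4% a larger difference in either direction. As a share of the cardiomyocyte marker sum, Jup stood at 0.446% in wild type and 0.4% in knockout.

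Pkp2 (ENSMUSG00000041957, chromosome 16), the plakophilin of heart muscle, had 7055 reads (60.8 RPKM) in wild type and 6255 reads (54.9 RPKM) in knockout. It was 1.107-fold lower (1.070 to 1.146), while its share of the cardiomyocyte marker sum was 0.433% in wild type and 0.43% in knockout. Dsp (ENSMUSG00000054889, chromosome 13), desmoplakin, the protein that anchors the intermediate filaments, had 27884 reads (73.8 RPKM) in wild type and 29969 reads (80.8 RPKM) in knockout. It was 1.095-fold higher (1.077 to 1.113), a difference that 51.1% of the expressed genes exceeded. Dsp and Jup therefore stood at a ratio of 1.18 in wild type and 1.58 in knockout, a relative change of 1.34 (1.29 to 1.39) that does not depend on how the libraries are scaled. The pair was picked after its values were seen, as the members at either end.

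The desmosomal cadherins lie together on chromosome 18 and form the extracellular bond. Dsg2 (ENSMUSG00000044393, desmoglein-2) had 4554 reads (19.9 RPKM) in wild type and 4448 reads (19.8 RPKM) in knockout, a ratio of 0.995 (0.9545 to 1.037). Dsc2 (ENSMUSG00000024331, desmocollin-2) had 2281 reads (12.4 RPKM) and 2380 reads (13.2 RPKM), a ratio of 1.063 (1.003 to 1.126). For Dsg2 the libraries did not differ beyond counting error, and for Dsc2 the interval only just leaves out 1. Summed over the 5 desmosome genes there were 49710 reads in wild type and 49409 in knockout, a ratio of 1.013 per library read. Dsp alone held 27884 and 29969 of these reads, and the summed RPKM was 229 and 220.

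**Figure D2:**
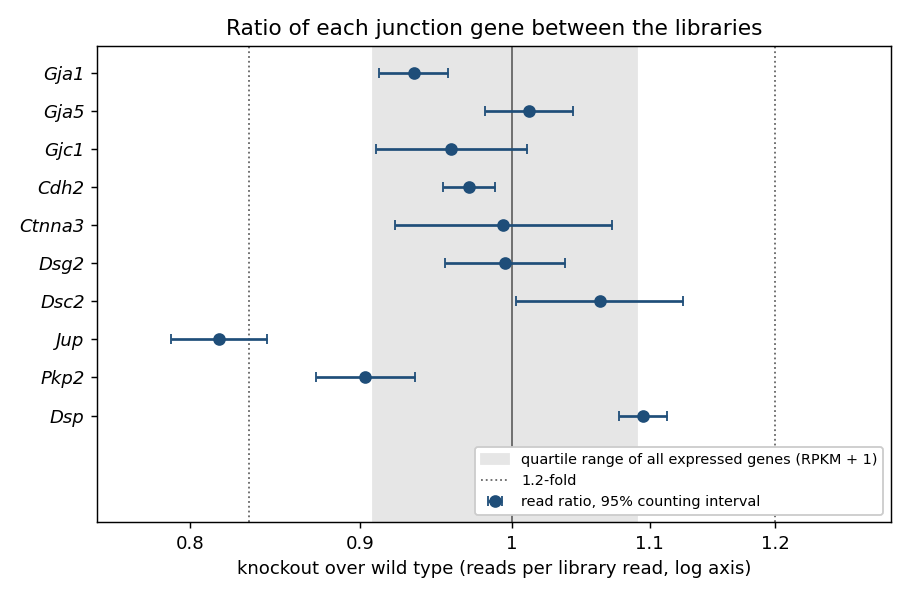
Ratio of reads per library read, knockout over wild type, for each junction gene on a log axis, with exact 95% intervals for counting error only (1 library per group); the shaded band is the quartile range of all expressed genes and dotted lines mark 1.2-fold. Jup lies lowest at 0.816 and Dsp highest at 1.095, and the intervals of Gja5, Gjc1, Ctnna3 and Dsg2 hold 1.

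The counting interval left out 1 for 6 of the 10 genes: Gja1, Cdh2, Pkp2 and Jup on the lower side and Dsp and Dsc2 on the higher. At these depths it left out 1 for 59.6% of all expressed genes, 31.6% on the lower side and 28% on the higher, so the count of 6 is near the background. Among the 7051 expressed genes with a mean of 1000 to 35000 reads, the range that covers the junction genes, 14.1% differed by 1.2-fold or more.

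**Figure D3:**
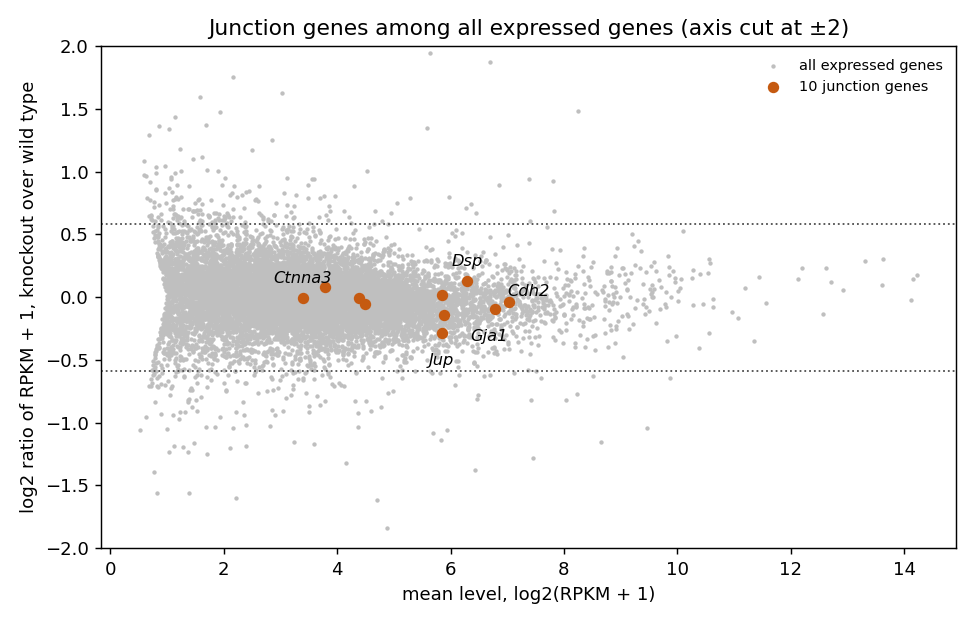
Log2 ratio of RPKM + 1, knockout over wild type, against mean level for the 12329 expressed genes (grey) and the 10 junction genes (orange), 1 library per group; dotted lines mark 1.5-fold and 10 genes fall outside the drawn range. The junction genes lie inside the dotted lines, with Jup at -0.29 and Dsp at 0.13.

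In gene structure the 10 are unlike each other. In the GRCm38 annotation the coding sequence of Gja1 and of Gjc1 sits in 1 exon, whereas Dsp has 24 coding exons, Ctnna3 17, Cdh2 and Dsc2 16 each, Dsg2 15, Pkp2 13 and Jup 12. Ctnna3 spans 1573.6 kb and Cdh2 220.4 kb, against 28.8 kb for Jup and 47.3 kb for Dsp. Read counts per gene do not separate splice forms, so exon use within these genes was not measured. For 9 of the 10 genes at most 5.86% of the 31-base words of the longest transcript occur in another gene, and for Gja5 25.6% do, in Zfp697 and Gpr89, so that uniquely mapped reads measure Gja5 with less certainty.

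Related junction genes were described from 6 lists chosen with earlier results known, and 1 gene in them, a connexin, passed 1.5-fold on the RPKM + 1 scale. Among the other connexins, 3 of 16 were expressed at 1 RPKM or more, and all 3 are given, Gja3 being added after its values were seen. Gja4, which encodes Cx37 of the endothelium, had 1002 reads (15.0 RPKM) in wild type and 1327 reads (20.3 RPKM) in knockout, 1.349-fold higher (1.242 to 1.466). Gja3, Cx46, best known from the lens, had 182 and 277 reads, 1.55-fold higher (1.281 to 1.88). Gjd3 had 45 and 15 reads, 2.945-fold lower (1.611 to 5.688), and was the only connexin past 1.5-fold on the RPKM + 1 scale, where 1.44% of the expressed genes were that much lower. The share of connexin RPKM held by Gja4 was 7.10% in wild type and 9.67% in knockout. The 8 endothelial and endocardial markers had a median log2 ratio of 0.02, from -0.23 to 0.18, with summed levels of 347 and 339 RPKM and none at 0.

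The other cadherins, with 6 of 9 expressed, had a median log2 ratio of -0.00 and none past 1.5-fold. Cdh5, the endothelial VE-cadherin, was the most abundant by mean RPKM, with 74.5 and 63.5 RPKM, 1.173-fold lower (1.142 to 1.205). Among the expressed ones it also had the largest log2 ratio of RPKM + 1 in size. Cdh11, named after its values were seen, had 65.6 and 67.1 RPKM and so stood above Cdh5 in knockout. Expressed Cdh6 had a larger read ratio on far fewer reads, 205 and 245, 1.217-fold higher (1.007 to 1.473), and Cdh4, below 1 RPKM, had 155 and 68 reads, 2.238-fold lower (1.672 to 3.021). Cdh6 and Cdh4 were likewise named after their values were seen. The level of Cdh2 relative to Cdh5 was 1.76 in wild type and 2 in knockout. Of 13 other desmosome genes 3 were expressed, 0 of them above and 3 below a log2 ratio of 0, with none past 1.5-fold. Pkp4, the most abundant, had 43.8 and 43.6 RPKM, and Perp, a tetraspan desmosome protein and p53 target, had 38.4 and 27.0 RPKM, 1.421-fold lower (1.341 to 1.505). Of the desmosomal cadherins of stratified epithelium, Dsg1a, Dsg1b, Dsg1c, Dsg3, Dsg4 and Dsc1 were at 0 to 4 reads, while Dsc3 had 66 and 38 reads, 1.705-fold lower (1.127 to 2.613) at a level below 1 RPKM.

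The adherens junction plaque list had 14 of 15 genes expressed, 4 above 0 and 10 below, with a median log2 ratio of -0.04 and none past 1.5-fold. Its most abundant gene, Ctnnb1 (beta-catenin, the partner of plakoglobin at cadherin tails), had 187 RPKM in wild type and 164 RPKM in knockout, 1.139-fold lower (1.119 to 1.160). Jup stood at 0.334 of the Ctnnb1 level in wild type and 0.310 in knockout. Sorbs2, an adaptor found at the Z-disc and the intercalated disc, had the largest log2 ratio of RPKM + 1 in size among the expressed genes, with 125 and 93.9 RPKM, 1.329-fold lower (1.307 to 1.352). By reads alone Ctnna2 (146 and 191 reads, 1.333-fold higher, 1.069 to 1.665) and Ctnnd2, which was below 1 RPKM (133 and 223 reads, 1.708-fold higher, 1.372 to 2.133), differed by as much or more. Tjp1, the scaffold that binds the tail of Cx43, had 31.7 and 31.8 RPKM.

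Among the disc-associated proteins 13 of 14 were expressed, 4 above 0 and 9 below, with a median log2 ratio of -0.06. None passed 1.5-fold, while 4 of the 13 were at least 1.2-fold lower and none as much higher, against 10.4% lower and 10.1% higher among all expressed genes. Desmin (Des), whose filaments end at the desmosomes, was the most abundant at 238 and 208 RPKM, 1.142-fold lower (1.123 to 1.162). Bves, a membrane protein of the Popeye family, differed most, with 78.1 and 59.3 RPKM, 1.316-fold lower (1.261 to 1.373). Others at least 1.2-fold lower, named after their values were seen, included Nrap and Flnc, with log2 ratios of -0.32 and -0.30. Nrap links actin to the cell ends, and Flnc is the muscle filamin.

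**Figure D4:**
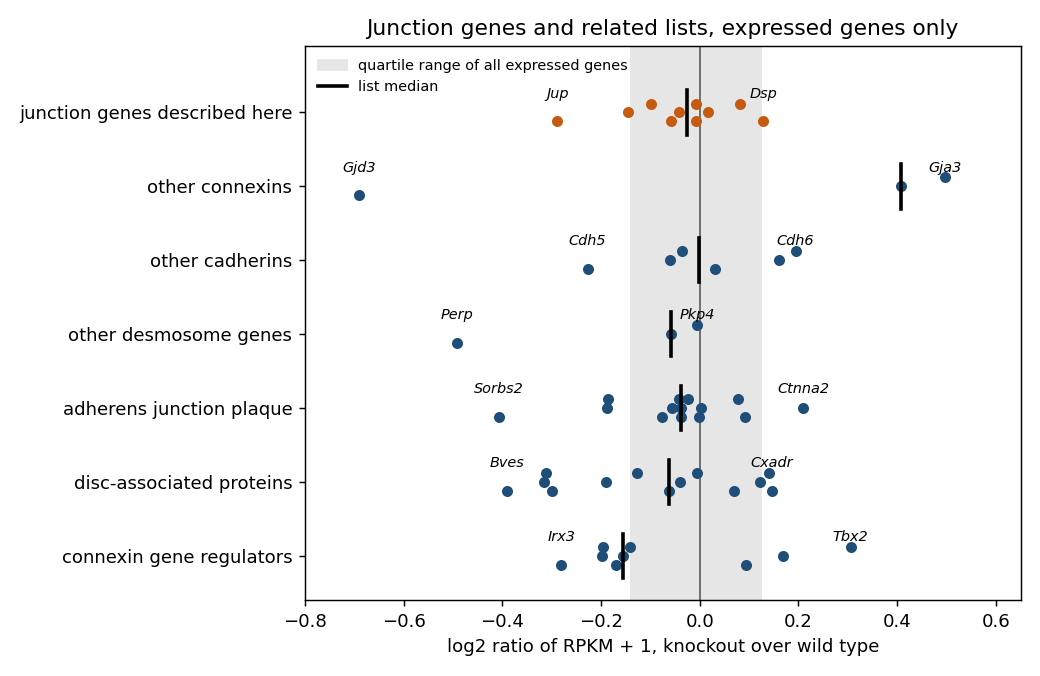
Log2 ratio of RPKM + 1, knockout over wild type, for the expressed genes of the junction list and of 6 related lists; each point is a gene, the black bar is the list median, the shaded band is the quartile range of all expressed genes, and the lowest and highest gene of each list are named (points are offset vertically for legibility). The junction genes lie between -0.29 and 0.13, and the widest spread is that of the other connexins, from -0.69 to 0.50.

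Of 9 transcription factors known to act on connexin genes in the heart, all were expressed, with 3 above 0, 6 below and a median log2 ratio of -0.16. None passed 1.5-fold. Nkx2-5, an activator of Gja5, was the most abundant at 109 and 98.3 RPKM, 1.105-fold lower (1.067 to 1.144). Tbx2, a repressor of both Gja1 and Gja5 in the atrioventricular canal, differed most, with 4.78 and 6.15 RPKM, 1.286-fold higher (1.162 to 1.423). Tbx3, a related repressor, lay on the other side, with 3.68 and 3.09 RPKM, 1.192-fold lower (1.068 to 1.33). Tbx5, which activates Gja5, had 25.6 and 22.7 RPKM. Irx3 had 9.54 and 7.68 RPKM, 1.243-fold lower (1.124 to 1.374). The remaining log2 ratios were -0.20 for Gata4, -0.16 for Hey1, 0.09 for Tbx20 and 0.17 for Hey2. All factors here other than Nkx2-5 and Tbx2 were named after their values were seen. Between the same libraries Gja5 did not differ beyond counting error and Gja1 was 1.071-fold lower (1.045 to 1.097). A link between these values and those of the factors was not tested.

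Markers of the cells that carry these junctions also differed between the libraries. Cardiomyocyte markers summed to 14000 RPKM in wild type and 12700 RPKM in knockout, with 7 of 9 below 0 and log2 ratios from -0.35 to 0.32. Actc1 and Tnnt2 held 45.3% and 21% of the wild-type sum. By summed reads, where long genes weigh more, the ratio of the 9 was 0.984 (0.9817 to 0.9863), knockout over wild type. Ventricular markers had 4 of 5 below 0 (4680 and 4210 RPKM), with Myl3 at 1540 and 1160 RPKM, most of the difference in the sum. Atrial markers had 4 of 6 below 0 (3570 and 3110 RPKM), with Nppa at 1170 and 747 RPKM, most of the difference. The other atrial log2 ratios were -0.92 for Sln, -0.31 for Nr2f2, -0.08 for Myl7, 0.07 for Myl4 and 0.75 for Bmp10. Conduction system markers had 4 of 6 expressed below 0 (42.3 and 34.1 RPKM). Among them Shox2 had 9.11 and 3.96 RPKM, most of the difference in the sum, while the other 5 had log2 ratios from -0.20 to 0.14. Epicardial and mesothelial markers, of cells that also build desmosomes, had 6 of 9 above 0 with a median log2 ratio of 0.28 and summed levels of 187 and 211 RPKM. Markers of surface or gut epithelium were near 0, with a sum of 2.63 and 2.49 RPKM over 7 genes and 2 reads of Cdh1 in each library. Larger differences were seen in lists of other cells. Fibroblast and cushion mesenchyme markers had 6 of 6 below 0 and summed to 813 RPKM in wild type and 567 RPKM in knockout, none at 0, and such cells also express some of the junction genes. Smooth muscle markers, which embryonic cardiomyocytes also express in part, had 3 of 4 above 0 (1040 and 1320 RPKM), and skeletal muscle markers 3 of 4 expressed (138 and 189 RPKM). Of the skeletal muscle markers, Tnni2 had 24.4 and 96.8 RPKM, more than the difference in the sum, and Ckm had 102 and 75.1 RPKM. Myod1 and Myog, below 1 RPKM, were lower in knockout, with 18 and 2 reads and 41 and 18 reads. Red cell markers had 5 of 5 expressed below 0 (3970 and 2880 RPKM), with the most abundant, Hbb-y, at -0.12. Gata1 and Klf1 of that list, below 1 RPKM, went the other way, with 24 and 58 reads and 32 and 48 reads. The Klf1 interval holds 1. Macrophage and leukocyte markers had 4 of 4 expressed above 0 (34.1 and 49.4 RPKM), and neural crest and glia markers 2 of 2 expressed below 0 (6.11 and 4.89 RPKM). Hepatocyte markers had 274 reads in wild type and 40 in knockout over 4 genes, with Alb at 0 in knockout. The part of these differences in the junction gene values was not tested.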

How the data were processed

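Whole-heart RNA was extracted with Trizol and made into standard Illumina libraries, per the labels' protocols. Bowtie 0.12.2 and mm9 are named in the submitters' processing notes, whereas the sources used here do not give the annotation release, read filters or strand setting. The deposited count of a gene is its number of uniquely mapped reads, per the file headers, and counts summed to the header totals. The deposited RPKM was recomputed from count, listed length and total with a largest relative deviation of 2.2e-14. The authors also deposited a coverage column, read here as the percentage of listed length under reads, and 1 value in it exceeds 100.

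Symbols were matched on Ensembl identifier for 17196 of 17646 genes. Unlisted genes count as 0 reads. The ratios are log2 of RPKM + 1, knockout over wild type, over genes that reach 1 RPKM in either library. Read ratios have exact conditional Clopper-Pearson 95% intervals. These were checked on simulated counts drawn with counting error alone, so the check does not cover other spread between real libraries. The intervals cover counting error only, since 1 library per group holds no spread between hearts. Reads also lack molecular identifiers, so copies of 1 molecule count as separate reads, which the intervals do not allow for. With 1 library per group no count model was fitted, and edgeR 4.0.16 gave only TMM and upper-quartile factors. Gene structure and shared 31-base words came from GENCODE M21 (GRCm38), so no gene coordinates of the mm9 files are given, and start-site sequence from RefSeq (GRCm38.p6). Reads of overlapping or antisense genes may be mixed. The genes and lists were chosen with earlier results of these data known. From each related list the most abundant gene, the one with the largest absolute log2 ratio and any past 1.5-fold were named, and others are said to be added. Python 3.11.15 and SciPy 1.17.1 were used.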

Additional observations from a re-analysis of the deposited data

How the results depend on the processing

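The 10 log2 ratios were recomputed with pseudocounts of 0.1 and 5, with TMM, median-of-ratios and upper-quartile scaling, relative to 9 cardiomyocyte markers, and, chosen after seeing the data, with reads outside the mitochondrial genes as the total. Jup (-0.293 to -0.179), Pkp2 (-0.150 to -0.035), Dsp (0.123 to 0.239), Dsc2 (0.063 to 0.185) and Gja5 (0.011 to 0.126) kept their sign in all 7. Relative to cardiomyocyte markers, which shifts the median of all expressed genes by 0.1, the sign turned for Gja1 (0.012), Gjc1 (0.048), Cdh2 (0.067), Dsg2 (0.099) and Ctnna3 (0.093), and the median of the 10 genes became 0.080; that median and the count past 1.5-fold under this scaling were also added after seeing the data. Dsg2 and Ctnna3 also turned with upper-quartile scaling (0.003 and 0.001) and with mitochondrial reads left out (0.010 and 0.009). These turns follow from the construction, since a scaling adds nearly 1 constant to every log2 ratio. No junction gene passed 1.5-fold under any of these settings or at 2-fold, and 1 did at 1.2-fold. The number of all expressed genes counted, 364 at 1.5-fold, was 745 with a pseudocount of 0.1, 88 with 5, 178 among genes of at least 5 RPKM, 2533 at 1.2-fold and 67 at 2-fold. No paired analysis was possible because each group has 1 library, and no library could be left out. Depth limited the lowest gene, Ctnna3, to an interval of 0.9217 to 1.072.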

Other observations

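The deposited covered length sets Gja5 apart from the other junction genes. It was 67.5% of the listed 3668 bases in wild type and 75.22% in knockout, while each of the other 9 genes was at 96.29% or more in both. Among 176 genes within 25% of its mean read number and listed length, the median was 99% in wild type and 98.66% in knockout, and 6 of them lay below Gja5 in each library. The knockout covered 283 bases more, 2759 against 2476, on nearly the same number of reads, and 5 of the 176 genes differed more in covered length. The level of Gja5 did not differ beyond counting error, so a read count alone does not show this.

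The listed length of Gja5 equals that of an annotated transcript with 4 exons. Its first exon, of 697 bases, is not part of the other long transcript (2 exons, 3109 bases), and 165 of those bases lie in words shared with Gpr89, a gene on the opposite strand there. In its last exon, of 1770 bases, 849 bases lie in words shared with Zfp697. Which bases are covered in which library cannot be read from the deposited tables, and the part of these features in the covered length was not tested.

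The listed lengths of Gjc1 (3413 bases) and Pkp2 (2931 bases) equal those of transcripts annotated as retained-intron forms. That form of Pkp2 has 6 exons, against 13 in the coding transcript of 2918 bases. Covered length was 97.13% and 97.77% for Gjc1 and 99.62% and 99.59% for Pkp2. An equal length does not show that reads were counted on that transcript. RPKM levels of these genes rest on the listed length, which cancels as a divisor in read ratios between the libraries. Which bases were counted is not known, and the ratios can depend on that. Dsc2 had 98.96% covered in wild type and 96.29% in knockout, a difference that 134 of 682 like genes exceeded in size. Cdh2 had 97.3% and 99.01%, a difference that 2 of 24 like genes exceeded.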
